A study of Mus musculus with 13 samples.

Results

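In mouse Hepa 1-6 hepatoma cells depleted of KAP1, 1341 of 12862 RNA polymerase II (PolII) peaks lay at KAP1 peaks outside called H3K9me3 regions and overlapped no peak of the control list. These regions are called knockdown-only KAP1 sites here. They were chosen by measured values, namely the presence or absence of called peaks. Each was a PolII peak of the knockdown cells that overlapped no control PolII peak, shared at least 1 bp with a KAP1 peak and overlapped no H3K9me3 region. The rule therefore fixed the absence of control PolII, the presence of KAP1 and the absence of H3K9me3, and these are given below as descriptions without a test.

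The lists came from chromatin immunoprecipitation followed by sequencing (ChIP-seq), in which DNA pulled down by an antibody is sequenced and places where reads pile up are listed as peaks. KAP1, H3K9me3, H3K27ac and H3K4me1 were mapped in Hepa 1-6 cells under standard culture. PolII and RNA polymerase III (PolIII) were mapped on day 5 after transduction in cells carrying a control short hairpin RNA per the labels (the study's methods give an empty vector) and in cells carrying a hairpin against KAP1 (Kap1 KD), both selected with puromycin. Each of these 8 groups was 1 library, so no value here has a replicate error, and KAP1 was not profiled after its depletion. The KAP1 positions are those of cells that still had the protein.

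KAP1, encoded by Trim28, is a corepressor that Krüppel-associated box zinc finger proteins bring to DNA, where it gathers a histone methyltransferase and heterochromatin proteins. The outcome at many repeats is H3K9me3 and silence. KAP1 peaks also lie at gene starts without this mark, and the protein has been linked to the pausing of PolII just after initiation. H3K27ac marks active promoters and enhancers, and H3K4me1 flanks promoters and covers enhancers.

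Sequences of 3 kinds of site are shown, the last of them a small set. The first set holds the bases just upstream of the annotated start of 4 of the 12 highest-scoring sites that lay at a start site, read in the direction of transcription from the mm9 assembly (NCBIM37) and shown as examples. Of 6 promoters extracted, D730045B01Rik and Tmc8 are not shown and had no match, with GC contents of 38.8% and 54.0%, against 54.0% to 76.4% in the 4 shown. Capitals mark promoter letters searched on both strands, here the GC box GGGCGG, the CCAAT box CCAAT and the NRF1 letters GCATGCGC. Fzd5, a Wnt receptor, and Gxylt1, which modifies Notch, had CpG-rich upstream bases with 10 and 5 matches, all but 1 of them GC boxes. Bcdin3d, an RNA methyltransferase, had 3 matches, of which the NRF1 letters matched on both strands and overlap. Dst, a cytoskeletal linker, had no match and had the highest PolII score (316) of the sites where the numbering of the control list had no gap.
Dst, chr1:34178226-34178475, plus strand: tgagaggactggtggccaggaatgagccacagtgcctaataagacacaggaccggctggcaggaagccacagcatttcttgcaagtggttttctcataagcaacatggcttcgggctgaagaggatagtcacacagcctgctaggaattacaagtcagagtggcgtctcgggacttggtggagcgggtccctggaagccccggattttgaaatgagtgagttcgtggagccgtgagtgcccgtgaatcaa
Gxylt1, chr15:93105611-93105860, minus strand: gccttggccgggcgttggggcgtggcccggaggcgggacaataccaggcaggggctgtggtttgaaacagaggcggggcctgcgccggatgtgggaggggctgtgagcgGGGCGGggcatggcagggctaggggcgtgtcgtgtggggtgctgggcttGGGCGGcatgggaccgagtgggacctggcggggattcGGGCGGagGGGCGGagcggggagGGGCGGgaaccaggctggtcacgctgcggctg
Bcdin3d, chr15:99305162-99305411, minus strand: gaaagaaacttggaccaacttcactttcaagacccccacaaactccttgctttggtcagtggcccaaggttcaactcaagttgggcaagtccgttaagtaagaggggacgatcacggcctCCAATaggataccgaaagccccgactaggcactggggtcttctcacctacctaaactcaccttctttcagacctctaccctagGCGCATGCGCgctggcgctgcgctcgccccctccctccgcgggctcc
Fzd5, chr1:64784325-64784574, minus strand: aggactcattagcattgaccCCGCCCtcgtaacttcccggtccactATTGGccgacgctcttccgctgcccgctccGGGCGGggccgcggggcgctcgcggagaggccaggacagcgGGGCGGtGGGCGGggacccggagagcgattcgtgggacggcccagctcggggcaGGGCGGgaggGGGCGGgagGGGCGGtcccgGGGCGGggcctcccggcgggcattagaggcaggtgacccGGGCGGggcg

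The second set shows the sites that lay far from any gene start. Each line holds 100 bases on the plus strand around the AP-1 letters (TGACTCA or its complement TGAGTCA, in capitals), which fell within 150 bp of the centre of the KAP1 peak. AP-1 is the family of Jun and Fos dimers. These 4 were the highest-scoring such sites with H3K27ac and an unbroken control numbering, and they were chosen after the motif shares had been seen. Lines are named by the nearest start site, which lay up to 138990 bp from the centre of the PolII peak for Foxa2.
Foxa2, chr2:148010874-148010973, plus strand: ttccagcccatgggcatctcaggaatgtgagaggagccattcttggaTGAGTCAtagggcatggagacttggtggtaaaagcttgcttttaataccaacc
Dusp4, chr8:35823755-35823854, plus strand: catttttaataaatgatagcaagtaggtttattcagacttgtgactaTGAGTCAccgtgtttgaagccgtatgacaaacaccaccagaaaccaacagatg
Gm9930, chr10:9216845-9216944, plus strand: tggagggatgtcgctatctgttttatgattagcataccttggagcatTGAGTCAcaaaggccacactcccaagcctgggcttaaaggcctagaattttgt
Mical2, chr7:119345835-119345934, plus strand: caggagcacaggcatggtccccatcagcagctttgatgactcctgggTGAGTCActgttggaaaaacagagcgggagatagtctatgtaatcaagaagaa

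The third set shows sites that also carried a PolIII peak in both conditions. The B box GTTCGANNC, in capitals, is an internal promoter element of tRNA genes and of some short interspersed repeats, and each line runs 5′ to 3′ on the strand on which it reads. No annotation of tRNA genes or repeats was used here, so the elements are not named. These 3 are among the highest-scoring with the letters within 150 bp of the KAP1 centre, again chosen after their values were seen. Only 21 bases of the line near Aurkb lay inside the PolII peak.
Atp5h, chr11:115274594-115274703, minus strand: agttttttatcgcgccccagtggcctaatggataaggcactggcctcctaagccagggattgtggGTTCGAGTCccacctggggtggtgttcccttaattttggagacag
Ccar1, chr10:62255364-62255473, plus strand: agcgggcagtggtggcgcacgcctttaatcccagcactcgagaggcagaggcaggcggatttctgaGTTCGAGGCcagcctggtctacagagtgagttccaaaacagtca
Aurkb, chr11:68854756-68854865, minus strand: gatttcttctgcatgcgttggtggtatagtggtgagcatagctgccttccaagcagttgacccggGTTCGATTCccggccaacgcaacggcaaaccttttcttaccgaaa

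The count of 1341 followed from 3 steps. Of the knockdown PolII peaks, 8573 (66.7%) overlapped no control peak. Of these, 1499 overlapped KAP1, and 158 of those lay in H3K9me3 and were set aside. The remaining sites touched 1348 KAP1 peaks, of which 1292 themselves lay outside H3K9me3, and 1331 of the sites touched exactly 1 KAP1 peak. Comparisons were made with 1869 knockdown PolII peaks at KAP1 outside H3K9me3 that did overlap a control peak (shared KAP1 sites), and with 5480 knockdown-only PolII peaks outside H3K9me3 without KAP1.

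The control PolII list held 5015 peaks. Read numbers are unknown for all lists, so an added PolII signal after depletion and a more sensitive library cannot be told apart. The deposited peaks are numbered in genome order, and 2290 numbers (31.3%) were missing from the control list, which means that calls had been removed. Of the knockdown-only KAP1 sites, 1146 (85.5%) lay where the control numbering had no gap, against 94.4% of the shared KAP1 sites and 78.1% of the sites without KAP1. For the other 195, a control call may have been present before removal. Among the 10 highest-scoring sites 9 lay in such a gap, and among the 100 highest 22 did. With the sites in gaps left out, the scores ran from 13 to 316 with the same median of 45.

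The sites were modest and narrow PolII peaks. The PolII score, whose meaning was not stated and which serves only to rank peaks within a list, had a median of 45 (13 to 1294), against 107 (20 to 5470) at shared KAP1 sites and 39 (12 to 545) at sites without KAP1. The median width was 723 bp, against 1519 and 662 bp. Among knockdown PolII peaks at KAP1 outside H3K9me3, the share without a control peak was 85.1% (200 of 235) in the lowest quintile of scores and 10.6% (114 of 1078) in the highest. The sites themselves were spread over the score range, with 200, 362, 383, 282 and 114 in the quintiles from lowest to highest, and over all knockdown peaks the median was 48.

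**Figure D1:**
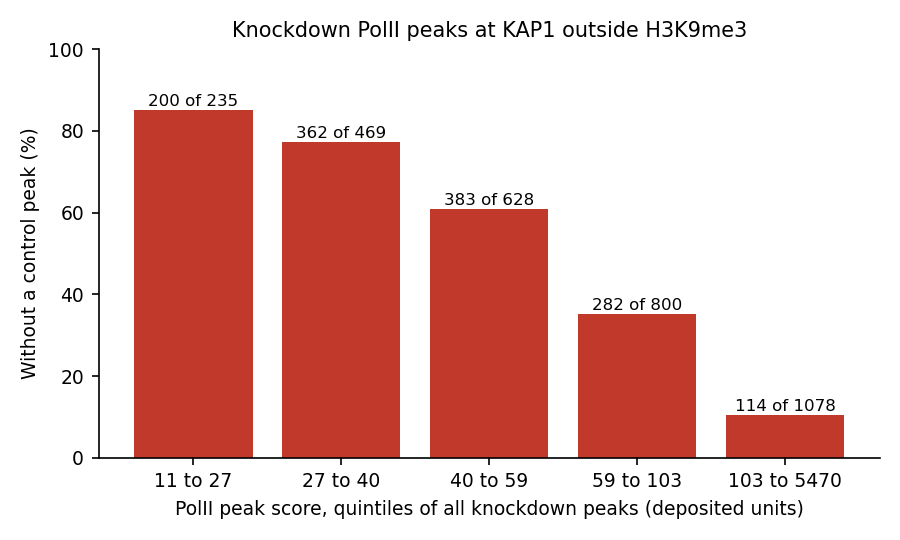
Share of knockdown PolII peaks at KAP1 outside H3K9me3 that had no control PolII peak (y axis, %), by quintiles of the PolII score of all knockdown peaks (x axis, deposited units). The share falls from 85.1% in the lowest quintile to 10.6% in the highest, with the counts written above the bars.

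Few of the sites were near misses of a control peak. The nearest control PolII peak lay at a median distance of 55811 bp, and 14 sites (1.04%) had one within 1000 bp and 85 (6.34%) within 5000 bp. The closest were at 1110020G09Rik, at 90 bp, and at Ell, an elongation factor of PolII, at 117 bp. Just outside the rule, the shared peak at Ccdc107 overlapped a control peak by 61 bp and one on chromosome 16 far from any gene by 65 bp. The nearest H3K9me3 region lay at a median of 29074 bp. The closest were 53 bp away at a peak within Fbxl8 near the start of Hsf4, a heat shock transcription factor, and 85 bp away at an intergenic peak on chromosome 4.

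The sites divided almost evenly between gene starts and distant places. In all, 710 of 1341 (52.9%, 95% Wilson interval 50.3 to 55.6%) had their centre within 1 kb of the start of a protein-coding transcript (TSS). Another 5.07% lay 1 to 3 kb away, 14.2% in introns, 1.79% in exons and 26.0% between genes. The intervals here cover counting error over peaks only. At shared KAP1 sites 69.1% were within 1 kb of a TSS (odds ratio 0.503, 0.435 to 0.581, adjusted p = 3.72e-20, Fisher's exact test, two-sided), and at sites without KAP1 30.5% were (odds ratio 2.57, 2.27 to 2.90, adjusted p = 1.84e-51). Both differences kept their direction and passed the threshold under every alternative setting tried, with odds ratios of 0.299 to 0.818 and of 2.22 to 2.86. Peaks are not replicate samples, so all p-values here are about where peaks lie in the lists and say nothing of the spread between cultures. They were adjusted together over 13 such tests by the Benjamini-Hochberg method.

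Near gene starts, PolII sat on the start and KAP1 just before it. At the 710 sites within 1 kb of a TSS, the centre of the PolII peak had a median position of 20.5 bp downstream of the TSS (quartiles -57.0 and 167 bp), with 407 sites (57.3%) downstream. The centre of the KAP1 peak had a median position of -88.0 bp, negative values being upstream (quartiles -223 and 2.75 bp), and was upstream of the TSS at 527 sites (74.2%). Relative to the PolII centre, KAP1 lay at a median of -118 bp and upstream at 516 sites (72.7%). Shared KAP1 sites showed the same median for KAP1, -88.0 bp from the TSS, and 71.8% of them had KAP1 upstream of the PolII centre. The PolII and KAP1 libraries came from cells under different culture, and the peak centre is not the summit.

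Promoters were then counted by gene. Of 22367 protein-coding genes, 748 (3.34%) had a knockdown-only KAP1 site within 250 bp of their annotated 5′ end, and 1636 (7.31%) had a shared KAP1 site. Of the 748 genes, 63 (8.42%) had a control PolII peak anywhere in the gene. The share was 8.28% for genes with a knockdown-only site without KAP1, 57.4% for all with knockdown PolII and 17.0% for all genes. Over the promoter itself 1 of the 748 had one, but the rule kept control PolII out of the sites, so this is a description only. A divergent protein-coding neighbour started within 1000 bp of 216 of the 748 (28.9%, 25.7 to 32.2%), against 25.9% of the genes with a shared KAP1 site, 21.4% of those with a knockdown-only site without KAP1, 23.3% of all with knockdown PolII and 10.8% of all genes. The median gene length was 20.9 kb, against 16.4 kb for shared KAP1 sites, 21.4 kb for knockdown-only sites without KAP1 and 15.4 kb for all genes.

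The promoters of these genes held GC box, ETS and NRF1 letters at higher shares than all promoters and the TATA box at a lower one, while CCAAT and YY1 letters were about level. In the 300 bp from 250 bp before the gene start to 50 bp after it, GGGCGG was present in 68.4% of the 748 promoters against 43.4% of all 22367. The ETS letters CCGGAAG were present in 26.6% (23.6 to 29.9%) against 10.8%, and the NRF1 letters in 10.4% (8.44 to 12.8%) against 3.30%. The TATA box TATAAA was present in 4.41% (3.16 to 6.13%) against 13.4%, CCAAT in 35.3% against 37.9% and the YY1 letters AAGATGG in 7.22% against 6.73%. For the GC box, ETS, NRF1 and TATA letters, promoters with a shared KAP1 site had 66.3%, 23.9%, 7.70% and 7.58%, so these values at knockdown-only sites lay nearer to those of other promoters with PolII than to those of all genes. A match is only a run of letters and does not show that a factor was bound.

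By gene group, the promoters of mitochondrial, aminoacyl-tRNA synthetase and proteasome genes held knockdown-only KAP1 sites at shares above the 3.34% of all promoters, which include silent genes. Among the 5222 promoters with any knockdown PolII peak the share was 14.3%, and these groups lay nearer to it, at 9 of 46 (19.6%) for mitochondrial ribosomal proteins, 9 of 52 (17.3%) for the respiratory chain, 5 of 23 (21.7%) for the synthetases and 4 of 23 (17.4%) for the proteasome. No test was made of any group. Of 76 mitochondrial ribosomal protein genes, 9 (11.8%) had such a site, among them Mrpl44 (PolII score 50), Mrpl50 (49) and Mrpl17 (39). Of 91 genes of the respiratory chain and ATP synthase, 9 (9.89%) had one, led by Ndufs8 (71), Ndufa6 (52) and Ndufa10 (51), all subunits of complex I. Aminoacyl-tRNA synthetases, which charge tRNAs, had 5 of 34 (14.7%), with Pars2 at 49 and Hars and Hars2 sharing 1 peak of score 42 between their divergent starts. Proteasome subunits had 4 of 39 (10.3%), led by Psmd1 (56), a gene with a control PolII peak elsewhere in its body. Splicing and hnRNP proteins had 6 of 65 (9.23%), or 6 of the 48 promoters with knockdown PolII (12.5%), and RNA helicases 5 of 54 (9.26%), or 5 of 28 (17.9%). These are small counts, and in each of these groups more promoters held a shared KAP1 site.

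For the other groups the second share is that of promoters with any knockdown PolII peak, read against 14.3%. RNA polymerase, TAF and Mediator subunits had 7 of 102 (6.86%, and 7 of 50), translation factors 4 of 68 (5.88%, and 9.76% of 41) and ubiquitin enzymes 5 of 103 (4.85%, and 11.1% of 45). Zinc finger genes, whose products include the partners that recruit KAP1, had 14 of 368 (3.80%, and 11.2% of 125), with Zfp142 (120), Zfp37 (111) and Zfp52 (100) highest. Solute carriers had 10 of 353 (2.83%, and 14.3% of 70) and chaperones 2 of 82 (2.44%, and 6.06% of 33). Cytosolic ribosomal protein genes had 4 of 81 (4.94%, and 5.41% of 74) against 34 with a shared KAP1 site. Histone genes had 0 of 67 although 44 of their promoters held KAP1, and 60 held control PolII, which by the rule keeps a peak out. Of 26 immediate early genes only Zfp36 (50), which destabilises mRNAs, had a knockdown-only KAP1 site, while 10 had a shared one. No site was found at the promoters of 52 genes of liver plasma proteins and lipid transport, 96 cytochrome P450 genes, 1113 olfactory receptor genes or 11 genes that the study names, among them Egr2, Junb and Hspa1a. Few of these promoters could hold one, since 7, 3, 2 and 6 of them in this order had any knockdown PolII peak. Of the 11 promoters of genes that the study names, 7 held KAP1 and 5 held control PolII.

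**Figure D2:**
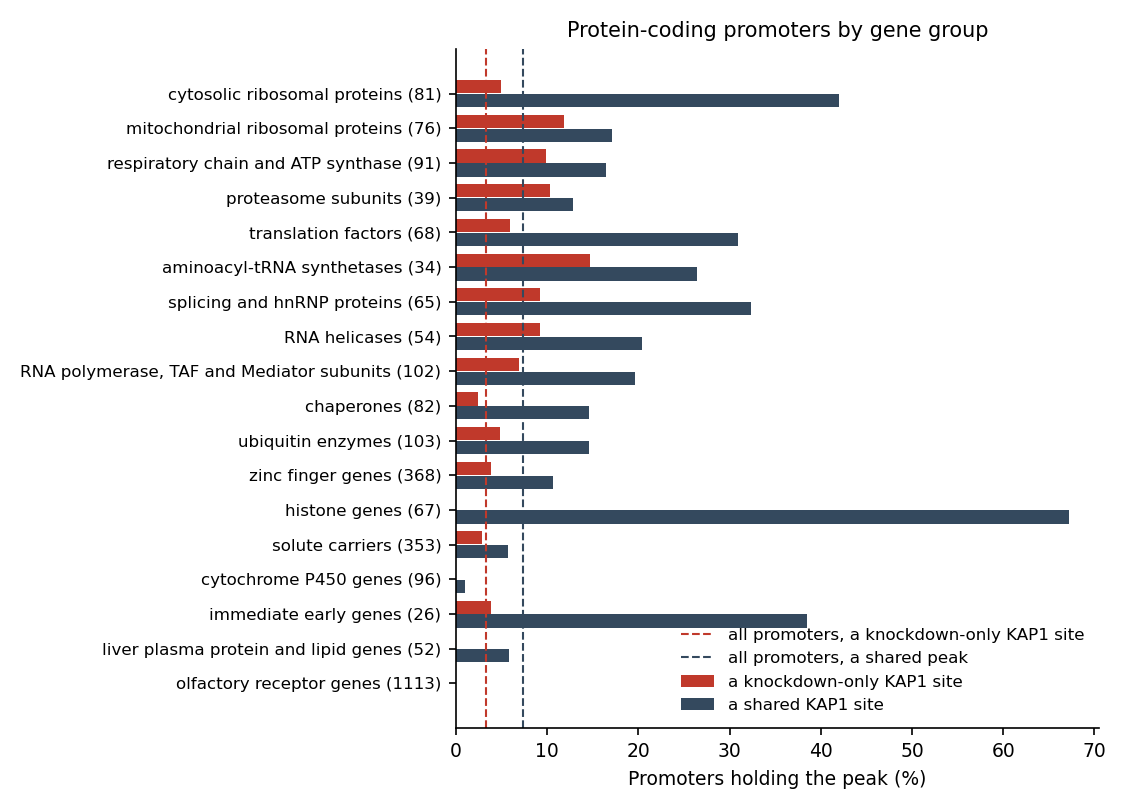
Share of protein-coding promoters (x axis, %) in each gene group (number of genes in brackets) that held a knockdown-only KAP1 site (red) or a shared KAP1 site (dark), with dashed lines at the shares over all promoters, 3.34% and 7.31%. The red bars farthest to the right are those of aminoacyl-tRNA synthetases (14.7%), mitochondrial ribosomal proteins (11.8%), proteasome subunits (10.3%) and the respiratory chain (9.89%).

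The highest-scoring sites with their centre within 1 kb of a TSS were broad. The highest of these was at Hnrnpa3, an RNA-binding protein gene, with a PolII score of 617 over 7625 bp (chr2:75495792-75503416, mm9). The adjoining peak, which covered the end of the gene and had its centre beyond it (chr2:75503735-75513350), had a score of 1108 and was also a knockdown-only KAP1 site, and 1 control number was missing beside both. Dst followed with 316 over 4109 bp (chr1:34177179-34181287), 61126 bp from the nearest control peak and with no missing number. D730045B01Rik had 265 and Gxylt1 244. Zfat, a zinc finger factor, had 243 and Bcdin3d 204. Each of these 4 lay beside at least 1 missing number.

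Of the other 6, Tmc8 (183), Ehd1 (177), which acts in endocytic recycling, Fzd5 (165), 1110008F13Rik (157) and Orai2 (150), a calcium channel subunit, lay where no number was missing. Adipor2 (163), an adiponectin receptor, lay beside 1 missing number. All 12 overlapped both H3K27ac and H3K4me1, as did 36.5% of the sites and 40.2% of all knockdown PolII peaks within 1 kb of a TSS. The 12 were also wide, at least 2310 bp against a median of 719.5 bp for the sites near a TSS. None of the 12 overlapped PolIII, and 1.13% of the sites near a TSS did. The KAP1 scores of the 12 ran from 53.2 at Adipor2, close to the lowest of the list (50.02), to 641 at D730045B01Rik, whereas the median over all KAP1 peaks was 102.

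Several of the highest scores of all lay over the bodies of genes, and the 4 named first each lay beside 1 missing control number. Tuba1c, an alpha tubulin gene, had 1294 over 12446 bp (chr15:98859002-98871447). Zc3h10, a zinc finger RNA-binding protein gene, had 882 over 5587 bp (chr10:127980689-127986275), with its centre 1213 bp from the TSS. Rps14 and Rps27a, ribosomal protein genes, had 680 and 608, the second over 7905 bp. Among sites more than 1 kb from a TSS where no number was missing, the highest were Spef1 (263), an intergenic site nearest Foxa2 (263), Lzts2 (258) and Pard6b (253).

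Active chromatin lay next to almost every site, but around PolII more often than under its centre. An H3K27ac region overlapped 1069 of the 1341 sites (79.7%, 77.5 to 81.8%) and an H3K4me1 region 776 (57.9%, 55.2 to 60.5%), while 218 (16.3%) overlapped neither. Over all knockdown PolII peaks these shares were 51.4%, 46.1% and 38.6%, and 7.60% of shared KAP1 sites overlapped neither. At the PolII centre the marks were scarcer. Within 1 kb of a TSS, the base 50 bp past the centre lay in H3K4me1 at 4.93% of sites and in H3K27ac at 23.1%. Coverage reached 77.2% for H3K4me1 at 1350 bp downstream and 52.8% for H3K27ac at 750 bp. Shared KAP1 sites near a TSS also dipped, from 76.9% at 1550 bp to 10.4% at the same base for H3K4me1 and from 61.7% at 750 bp to 33.4% for H3K27ac. At the 631 sites farther away, H3K27ac covered 56.7% near the centre and up to 78.0% at 550 bp, and H3K4me1 38.7% and up to 68.8% at 750 bp. At distant shared KAP1 sites H3K27ac covered 56.2% and up to 61.2%, and H3K4me1 47.3% and up to 61.2%. H3K9me3, which the rule kept out of the peaks, covered no more than 5.07% of positions at any distance up to 5 kb, and control PolII no more than 1.43%.

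**Figure D3:**
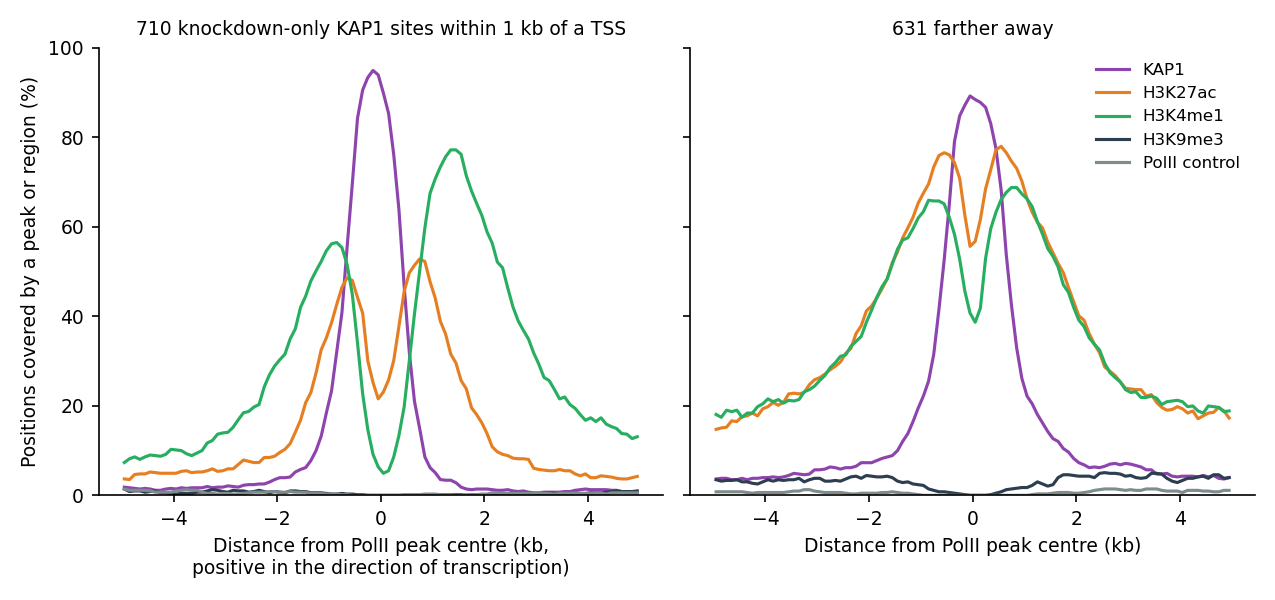
Share of knockdown-only KAP1 sites (y axis, %) at which a position lay in a KAP1 or control PolII peak or in a region of a histone mark, by distance from the PolII centre in steps of 100 bp (x axis, kb). H3K4me1 and H3K27ac dip at the centre and peak on both sides, KAP1 peaks at or close to the centre (near a TSS 94.9%, at -150 bp), and H3K9me3 and control PolII do not exceed 5.07% and 1.43%.

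The comparison of marks with shared KAP1 sites differed between measures. By overlap, shared sites had more H3K27ac (90.5%, odds ratio 0.411, 0.335 to 0.504, adjusted p = 1.67e-17) and more H3K4me1 (72.2%, odds ratio 0.529, 0.456 to 0.614, adjusted p = 7.06e-17, Fisher's exact tests). Shared peaks were also the wider ones, with medians of 1519 and 723 bp. Within 1 kb of the centre, a window of one size for every peak, H3K27ac was present at 93.0% of knockdown-only and 92.6% of shared KAP1 sites (odds ratio 1.06, 0.806 to 1.39, adjusted p = 0.730, Fisher's exact test) and H3K4me1 at 91.3% and 89.9% (odds ratio 1.18, 0.926 to 1.51, adjusted p = 0.259). Stratified by quintiles of width, the Mantel-Haenszel odds ratio was 1.12 for H3K27ac, not past the threshold, and 1.53 for H3K4me1, past it. Lower shares by overlap and narrower peaks cannot be told apart here.

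Against knockdown-only sites without KAP1 the difference in H3K27ac held throughout. The mark overlapped 42.4% of those sites (odds ratio 5.35, 4.63 to 6.17, adjusted p = 8.50e-139, Fisher's exact test), and the odds ratio stayed between 1.96 and 15.2 under every alternative. Within 1 kb of the centre the shares were 93.0% and 53.0%. For H3K4me1 the shares were 57.9% and 40.6% by overlap (odds ratio 2.01, adjusted p = 1.64e-29, Fisher's exact test) and 91.3% and 60.3% within 1 kb. At the centre base itself they were 21.3% and 21.2% (odds ratio 1.002), and with overlap of at least 0.5 of the peak the odds ratio was 0.957 (adjusted p = 0.592, Fisher's exact test).

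**Figure D4:**
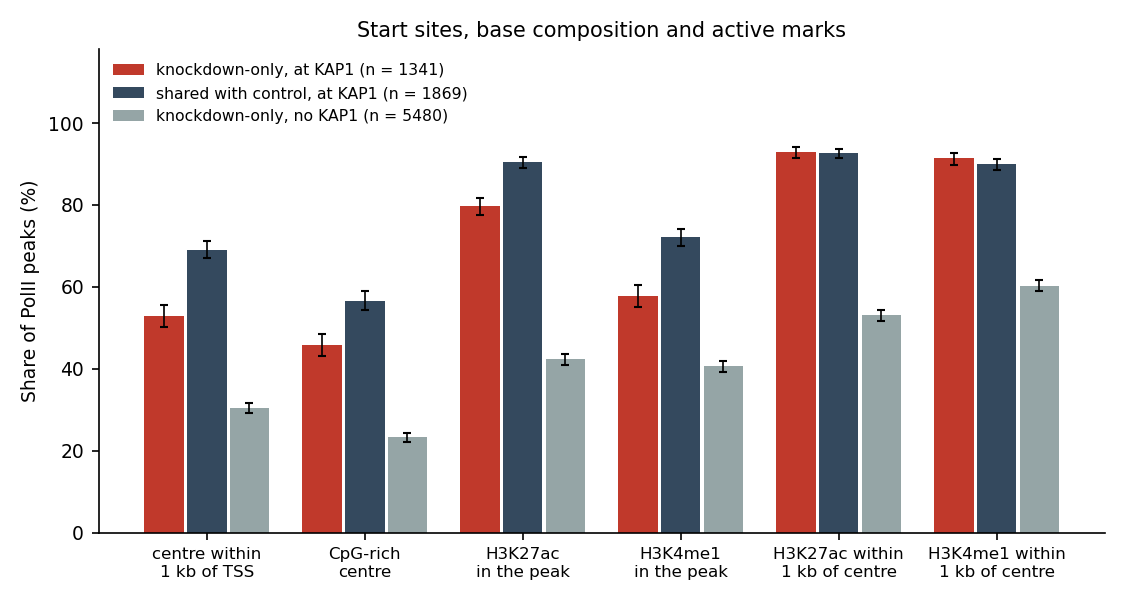
Share of PolII peaks (y axis, %, bars are 95% Wilson intervals) with each property in knockdown-only KAP1 sites, shared KAP1 sites and knockdown-only sites without KAP1. Knockdown-only KAP1 sites lie between the other classes in the first 4 groups of bars, and level with shared sites (93.0% and 92.6%, 91.3% and 89.9%) when marks are read within 1 kb of the centre.

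CpG-rich centres differed in opposite directions near gene starts and away from them. Of the knockdown-only KAP1 sites 45.8% were CpG-rich (a 500 bp window with GC of at least 0.5 and an observed over expected CpG of at least 0.6), against 56.7% of shared sites (odds ratio 0.646, adjusted p = 1.77e-09, Fisher's exact test) and 23.3% of sites without KAP1 (odds ratio 2.79, adjusted p = 2.39e-56). Within 1 kb of a TSS the order turned, with 82.8% (79.9 to 85.4%) against 75.5% (73.1 to 77.8%) of shared sites. Farther away it was 4.12% (2.83 to 5.97%) against 14.4% (11.8 to 17.5%). The Mantel-Haenszel odds ratio stratified by distance, 1.02 and not past the threshold, averages over these opposite differences.

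KAP1 scores were somewhat lower at knockdown-only sites than at shared ones. Of the 1341 sites, 572 (42.7%) had a KAP1 score above the median of all KAP1 peaks, against 53.6% of shared sites (odds ratio 0.645, 0.560 to 0.743, adjusted p = 1.64e-09, Fisher's exact test). A PolII peak took the highest score among the KAP1 peaks it overlapped, and shared peaks were wider, with a median of 1519 bp against 723 bp. Stratified by quintiles of width, the Mantel-Haenszel odds ratio was 0.825, still past the threshold. The difference was not past the threshold among the highest-scoring PolII peaks (odds ratio 0.796, adjusted p = 0.0736, Fisher's exact test). The KAP1 scores had a median of 91.0 and quartiles of 67.4 and 139. The highest were 3157.15 at an intergenic site nearest Alox5ap and 3114.95 at the start shared by Dpm1, which makes dolichol phosphate mannose, and Mocs3. Next came a group tied at 3100.

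Away from gene starts the sites carried the marks of active chromatin, and many held AP-1 letters. Of the 631 sites more than 1 kb from a TSS, 582 (92.2%) overlapped H3K27ac or H3K4me1 and 463 (73.4%) both. Either mark overlapped 96.9% of distant shared KAP1 sites, 51.6% of distant sites without KAP1 and 53.2% of all distant knockdown PolII peaks, and both marks 86.3%, 30.6% and 33.5%. TGACTCA was present within 150 bp of the PolII centre at 200 of the 631 (31.7%, 28.2 to 35.4%). It was present at 13.3% (10.8 to 16.4%) of distant shared KAP1 sites and 12.6% (11.6 to 13.7%) of distant sites without KAP1, and at 11.7% of all distant knockdown PolII peaks. In these PolII-centred windows the share at distant knockdown-only sites was 31.7% where the control numbering had no gap (169 of 533), 32.4% without chromosome 15 and 31.7% without sites that had a control peak within 1 kb. Near a TSS the share was 3.24% (2.17 to 4.81%), 3.41% and 3.59% in the 3 classes. AP-1 was picked from several letter patterns counted in these windows. At distant sites the others differed from shared KAP1 sites by fewer percentage points, for example GGGCGG at 11.9% against 16.6% and TATAAA at 13.2% against 12.7%. The intervals take no account of this choice. The sites are neighbours in the genome in places and were not sampled, so the intervals serve as a scale and no test was made.

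With windows centred on KAP1, knockdown-only sites again had the higher share than shared sites. The letters were present within 150 bp of the KAP1 centre at 34.3% (30.7 to 38.2%) of distant KAP1 peaks under knockdown-only sites, 16.5% (13.6 to 19.97%) of those under shared sites and 21.1% (19.7 to 22.5%) of distant KAP1 peaks outside H3K9me3 without PolII. GC content was read in the 500 bp windows around the PolII centre that served for CpG, not in the motif windows. For distant peaks its median was 48.8% at knockdown-only and shared KAP1 sites and 47.0% at sites without KAP1. The 95th percentiles were 58.7%, 64.4% and 58.0%. The part of base composition in the AP-1 shares was not tested.

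**Figure D5:**
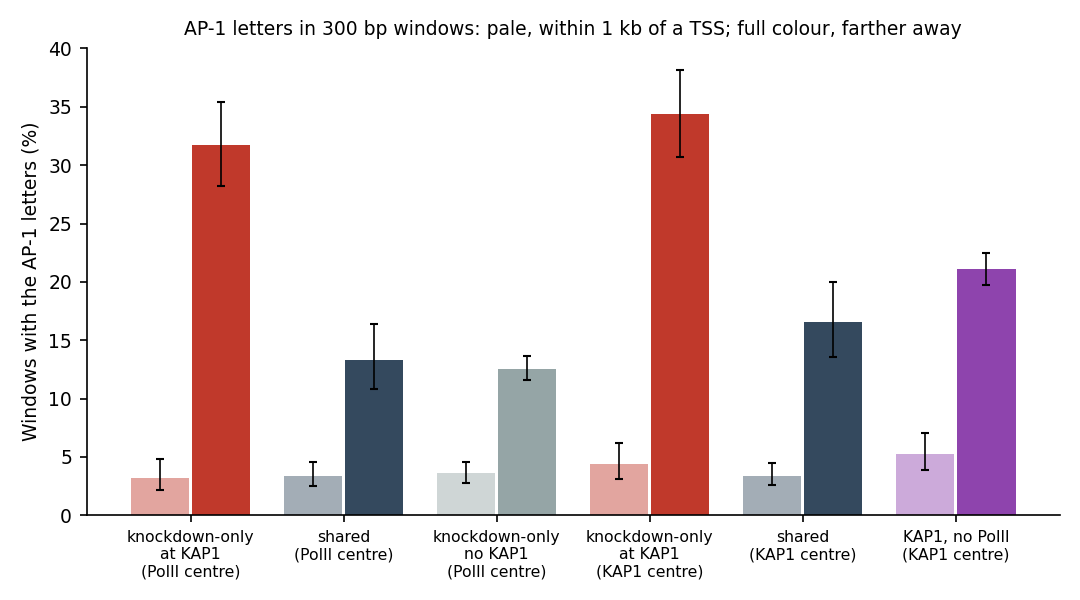
Share of 300 bp windows with the AP-1 letters (y axis, %, bars are 95% Wilson intervals), centred on PolII or on KAP1 (x axis), within 1 kb of a TSS (pale) and farther away (full colour). Distant knockdown-only KAP1 sites reach 31.7% and 34.3%, and the other plotted distant classes lie between 12.6% and 21.1%.

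Distant sites without an active mark were few. The 49 such sites (7.77% of the distant ones) included peaks of score 199 in the noncoding gene Gm20457, whose nearest coding start is Fan1, a DNA repair nuclease, and 171 close to Fam54a. Those at Trmu, which modifies mitochondrial tRNAs, and in Gm11613 near Mllt6 scored 115 and 78. The first lay in a stretch with 13 missing control numbers and the other 3 where none was missing. The peaks at Fam54a and Trmu had their centres 1206 and 1047 bp from the TSS, just beyond the limit of 1 kb.

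A small set of sites carried PolIII, which transcribes tRNA genes and other short RNAs. The control PolIII list held 2772 peaks and the Kap1 KD list 431, so counts from the 2 lists are not compared with each other. PolIII peaks overlapped 33 of the 1341 sites, 23 in both lists, 8 in the control only and 2 under Kap1 KD only. Over all knockdown PolII peaks the shares were 1.62% for control and 0.568% for Kap1 KD PolIII. Control PolIII was present at 2.31% of sites against 2.19% of shared KAP1 sites (difference 0.118 percentage points, -0.907 to 1.23, adjusted p = 0.904, Fisher's exact test) and 0.675% of sites without KAP1 (odds ratio 3.48, 2.15 to 5.63, adjusted p = 1.56e-06). Among as many top PolII peaks as the control list holds, the second difference was not past the threshold (odds ratio 2.64, adjusted p = 0.0537, Fisher's exact test). Knockdown PolIII was present at 1.86%, 1.44% (difference 0.420, -0.463 to 1.40, adjusted p = 0.429) and 0.0912%, the last being 5 of 5480 sites (odds ratio 20.8, 7.95 to 54.4, adjusted p = 1.51e-13, Fisher's exact tests). Under the alternative settings this odds ratio ran from 17.6 to 46.7, the highest without chromosome 15. Counted over the centre base of the PolII peak alone, control PolIII was present at 1.72% of knockdown-only and 0.696% of shared KAP1 sites (odds ratio 2.49, 1.26 to 4.94, adjusted p = 0.0142, Fisher's exact test), a measure added after seeing the data. At the sites without KAP1, the 37 control and 5 knockdown PolIII overlaps fell on different peaks, and none had both.

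The PolIII sites held most of the highest KAP1 scores. Their median KAP1 score was 3100, the tied value near the top of the list, against 88.9 at the 1308 sites without PolIII. A score of 3100 or above was reached by 19 of the 33, and by 4 of the 1308. In the other direction, 160 of all KAP1 peaks reached it. The PolII score did not stand apart, with a median of 42. The B box letters were present within 150 bp of the KAP1 centre at 16 of 33 KAP1 peaks with PolIII (48.5%, 32.5 to 64.8%) and at 26 of 1315 without (1.98%).

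By position, 25 of the 33 were more than 1 kb from a TSS. The highest PolII score after the peak at the end of Hnrnpa3 was 125, at an intergenic site with control PolIII and a KAP1 score of 169 (chr17:87250027-87252574), followed by Rnf114 (106) with control PolIII and a KAP1 score of 146. The first with both conditions was an intergenic site near Atp5h (chr11:115274019-115275843), with a PolII score of 98 and a KAP1 score of 3100. PolIII sites at coding starts included Ccar1, Tia1, Polg, Ilf2 and Ints1, and sites over annotated short RNA genes included a U6 copy (PolII score 49) and copies of 7SK (36 near Gsta4 and 17 in Celf2).

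The number of sites differed between chromosomes. The most lay on chromosomes 1 (139), 11 (135) and 2 (122). Chromosome 15 had the most knockdown PolII peaks, 1494, but 86 of the sites (5.76% of its peaks). Chromosome 1 had 15.4% and chromosome 10 14.9% of their knockdown peaks in this class. The X chromosome had 3 of 268 (1.12%), chromosome 14 9 of 274 (3.28%) and chromosome 12 7 of 141 (4.96%), beside 1341 of 12862 over all chromosomes. These 3 chromosomes held few KAP1 peaks outside H3K9me3, 46, 136 and 96 in this order, against 673 on chromosome 1. Among knockdown PolII peaks at KAP1 outside H3K9me3, the sites made up 75% (3 sites and 1 shared peak), 47.4% and 41.2%, against 42.8% on chromosome 1. Leaving out each chromosome in turn turned none of the 11 comparisons that passed the threshold.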

How the data were processed

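The lists of 8 Hepa 1-6 ChIP-seq libraries were used, 1 per antibody and condition. Per the methods of the study and the submitters' processing notes, the authors mapped reads with Bowtie to mm9, used MACS with total input for KAP1 and PolII and ChIP-Part for the histone marks. The program for PolIII is not given in the sources used here. The deposited lists hold positions and, for KAP1, PolII and PolIII, a score that ranks peaks within a list. The histone lists hold positions only. No list gives reads, so depth is unknown and intervals cover counting error over peaks only. The 5 input samples were not analysed here. Numbers were missing from the PolII and PolIII lists before deposit (31.3% and 22.6% for control and Kap1 KD PolII, 30.4% and 55.0% for PolIII), and none from the KAP1 list.

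Regions overlapped when they shared at least 1 bp. Starts (69976 positions) and 22367 protein-coding genes were those of GENCODE M1 on NCBIM37, the same build. The sites, classes and gene lists were chosen with earlier results of these data known. Differences between shares were tested with the two-sided exact test of Fisher, giving odds ratios, with Benjamini-Hochberg adjustment over 13 tests at a threshold of 0.05. The 95% intervals are Wilson intervals for single shares and Newcombe intervals for differences of shares. Those of odds ratios rest on a normal approximation of the log odds ratio. The named sites were the 12 highest-scoring near a TSS, the 4 highest farther away with an active mark, the 4 highest with neither, the 4 highest with PolIII, the 3 highest by KAP1 score, those nearest the limits of the rule and the 3 highest of each gene group. Sites ranked outside gaps in the numbering, the sequences with AP-1 and B box letters and other PolIII sites were named after their values were seen. One sequence is not reported here.

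Alternatives were overlap of at least 0.5 of a peak, distances of 1000 bp around the lists, peaks above the median score, stratification by width, as many top peaks as the control list holds, sites outside gaps in the numbering, leaving out chromosomes, merging of near peaks, and other limits for TSS, CpG and KAP1. Stratification by TSS distance and marks at or within 1 kb of the centre were added after seeing the data. The code was tested on simulated data. Python 3.11.15, pandas 2.3.3, scipy 1.17.1 and statsmodels 0.14.6 were used.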

Additional observations from a re-analysis of the deposited data

How the results depend on the processing

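No paired analysis was possible because each group held 1 library, and none was left out. Of 179 alternatives to the 13 share comparisons, 157 kept their direction and their side of the threshold. The values are odds ratios, followed by the adjusted p of Fisher's exact test, or no p where stratified (Mantel-Haenszel).

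Against shared KAP1 sites, H3K27ac was 0.861 with overlap of at least 0.5 of the peak (exact p = 0.0758), 0.719 among as many top peaks as the control list holds (0.277), 0.894 over the centre (0.157), and above 1 at 1.12 by width and 1.06 within 1 kb of the centre (0.730). H3K4me1 was 0.851 above the median score (0.195), and it turned to 1.61 with overlap of at least 0.5 of the peak (9.35e-06), 1.53 by width, past the threshold,, 1.02 among top peaks (1), 1.001 over the centre (1) and 1.18 within 1 kb (0.259). CpG-rich centres turned to 1.02 with stratification by TSS distance. Control PolIII, which did not pass the threshold, was 0.970 above the median score, 0.975 among top peaks, 0.873 by TSS distance and 0.972 at the lowest over left-out chromosomes, and passed at 2.49 over the centre (0.0142). Knockdown PolIII was 0.948 and KAP1 score 0.796 (0.0736) among top peaks.

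Against sites without KAP1, H3K4me1 was 0.957 with overlap of at least 0.5 of the peak (0.592) and 1.002 over the centre (1), and control PolIII was 2.64 among top peaks (0.0537). The cause of these changes was not tested. The number of sites was 589 above the median PolII score and 388 among as many top peaks as the control list holds.

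The limits are the single library per group, the unknown depth, the removed control calls and the KAP1 map from unperturbed cells. The interval of the PolIII difference from shared KAP1 sites ran from -0.907 to 1.23 percentage points in the control.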
